A study of Danio rerio with 4 samples.

Results

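The Kit system of zebrafish has a pair of receptor genes, kita and kitb, and a pair of ligand genes, kitlga and kitlgb. These 4 genes were taken from the 32520 genes of the count table by their symbols. The genes are ENSDARG00000043317 (kita), ENSDARG00000056133 (kitb), ENSDARG00000070917 (kitlga) and ENSDARG00000058042 (kitlgb). Their levels were compared between the gonads of untreated adult zebrafish (Danio rerio) of the AB laboratory strain, 2 ovaries from females and 2 testes from males. All were null controls: the drug tested elsewhere in the study was exemestane, which blocks oestrogen synthesis, and these fish had received neither the drug nor its solvent. Each library was made from the gonad of 1 fish. Per the methods, each adult treatment group was kept in 1 tank, where a plate with holes separated the sexes. The males and females of the null control thus shared their water.

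Kit is a receptor tyrosine kinase of class III, the family that also holds the receptors for colony stimulating factor 1, Flt3 ligand and platelet-derived growth factors. The Kit ligand is made as a membrane protein that can act on a neighbouring cell or be cut off by proteases, and it brings a pair of receptors together so that they phosphorylate each other and recruit the PI3K-Akt and Ras-MAPK cascades. In the mouse gonad, KIT is found on primordial germ cells, differentiating spermatogonia, oocytes and Leydig cells, while its ligand is made by the Sertoli cells of the testis and the granulosa cells of the ovary. Teleost fish carry a duplicate of each gene. Zebrafish kita is the gene of the sparse mutant and kitlga that of the sparse-like mutant, both known for their loss of melanocytes.

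The ovary libraries held 26137839 and 18085251 read counts and the testis libraries 11554811 and 12382674. The unit of level is CPM, counts per 1000000 reads of a library, its size being scaled by TMM, the trimmed mean of M-values. The labelled tissues were checked against marker lists. All 10 oocyte genes were higher in ovary and all 9 tested genes of spermatocytes and spermatids were higher in testis. Summed over the oocyte list, testis replicate 1 had 0.676% of the mean ovary level and testis replicate 2 had 0.383%. In whole gonads, fewer cells of a type and less RNA per cell cannot be told apart.

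Of the 4 Kit genes, 3 were higher in testis and 0 were higher in ovary at an edgeR adjusted p under 0.05. Across the 21815 genes tested, 65.2% passed that threshold, 36.7% being higher in testis and 28.5% higher in ovary. Both testes lay above both ovaries for 4 of the 4 Kit genes, as they did for 48.1% of all genes tested. Since most genes passed, passing the threshold did not by itself set the Kit genes apart. In addition, kitb and kitlgb entered the test only through their testis counts. The count was 1, kitb alone, without ovary replicate 1, without ovary replicate 2 and without testis replicate 1. The sizes of their differences were far from equal. The median log2 fold change of all genes tested, testis against ovary, was 0.45.

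The receptors were examined first. For kitb, the ovaries had 4 and 2 counts and the testes 333 and 522 counts. In CPM these were 0.212 and 0.134 for ovary against 21.8 and 33.3 for testis. The transcript was thus near the limit of detection in both ovaries and present in both testes, with no overlap. Mean levels were 0.173 ± 0.0547 CPM for ovary against 27.6 ± 8.13 CPM for testis (SD, n = 2 each). The log2 fold change of kitb was 7.23 ± 0.54 (SE), above that of 94.96% of all genes tested, with an edgeR adjusted p of 0.000244. With 4 and 2 counts in the ovaries, kitb passed the filter on low counts only through the testes. It still passed the threshold when every gene with at least 1 count was tested (edgeR adjusted p 0.000907). Since the ovaries held so few reads, the ratio of summed counts was also computed. Scaled for library size it was 156-fold, with a 95% interval from counting error alone (exact) of 71.3 to 426.

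The other receptor, kita, differed from kitb. Its level was 7.04 and 6.52 CPM in the ovaries, from 133 and 97 counts. The testes had 13.8 and 7.47 CPM, from 210 and 117 counts. Testis replicate 1 lay well above the ovaries, whereas testis replicate 2 lay just above them, so the groups did not overlap but nearly met. The mean was 6.78 ± 0.368 CPM for ovary against 10.6 ± 4.46 CPM for testis (SD, n = 2 each). The log2 fold change was 0.65 ± 0.48 (SE), and the edgeR adjusted p of 0.27 did not pass. The 95% interval of this log2 fold change ran from -0.52 to 1.81, so neither a higher nor a lower level in testis was shown. Leaving out testis replicate 1 brought the value to 0.13 (edgeR adjusted p 0.879). With libraries scaled by their size alone, kita passed at 1.40 (edgeR adjusted p 0.0475), but the median of all genes then rose to 1.19. Relative to the median of all genes kita stood at 0.20 under TMM and at 0.21 under library size alone. Scaling shifts all genes nearly alike, so these values had to be close and do not show that the position of kita was steady. It was 1.01 with at least 10 counts in every library and -0.50 when every gene with at least 1 count was tested. Without each library in turn it ran from -0.26 to 0.62.

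**Figure D1:**
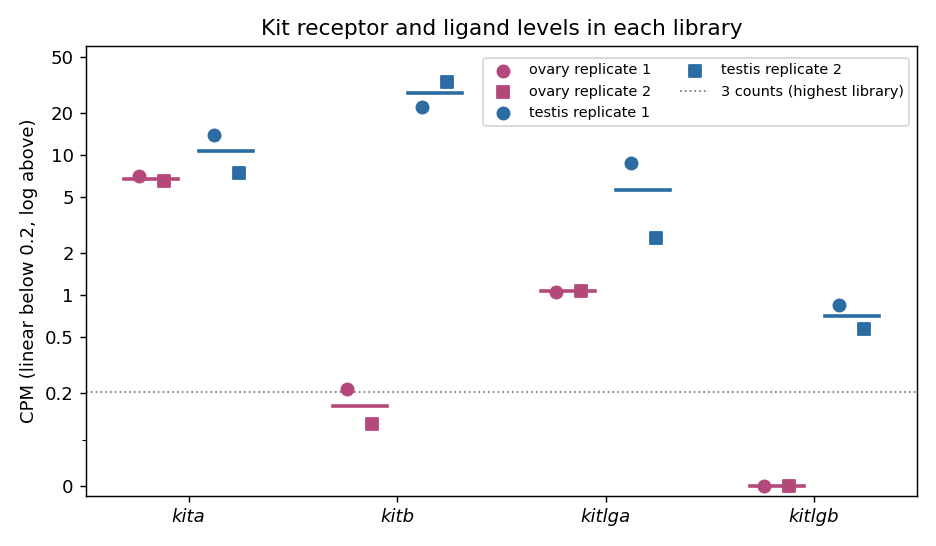
Levels of the 4 Kit genes in CPM (vertical axis, linear below 0.2 and logarithmic above) in the 2 ovaries and 2 testes. Points are libraries, short lines are group means, and the dotted line marks 3 counts in the library where these weigh most (0.202 CPM). kitb lies at or below 0.212 CPM in the ovaries and at 21.8 and 33.3 CPM in the testes, whereas the kita points of the sexes nearly meet.

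The balance between the receptor copies did not overlap between the sexes. It was measured as the share of kita in the counts of both receptors, which does not depend on how libraries are scaled but does depend on the lengths of both transcripts. In the ovaries kita made up 133 of 137 and 97 of 99 receptor counts, or 97.1% (exact 95% binomial interval 92.7 to 99.2) and 97.98% (92.9 to 99.8). In the testes it made up 210 of 543 and 117 of 639, or 38.7% (34.6 to 42.9) and 18.3% (15.4 to 21.5). Nearly all receptor reads of the ovaries came from kita, while most of those of the testes came from kitb. The means were 97.5% ± 0.636 for ovary against 28.5% ± 14.4 for testis (SD, n = 2 each), a difference of -69.0 percentage points. An exact permutation test over the 4 libraries (two-sided) gave p = 0.333, the smallest value that 2 libraries against 2 can give, so the comparison cannot pass 0.05. Transcript length cancels in the difference of the log2 ratio of kitb to kita, which was -5.09 in ovary and 1.41 in testis, a difference of 6.50. Without each library in turn the difference in share stayed between -79.2 and -58.9 points. The intervals of the testes did not overlap each other either, so the balance also differed between these 2 fish by more than counting error.

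Both receptors together reached ovary levels of 7.25 and 6.65 CPM against testis levels of 35.6 and 40.8 CPM. The sums of the testes lay closer together than either receptor alone, since kita was higher in testis replicate 1 and kitb in testis replicate 2.

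**Figure D2:**
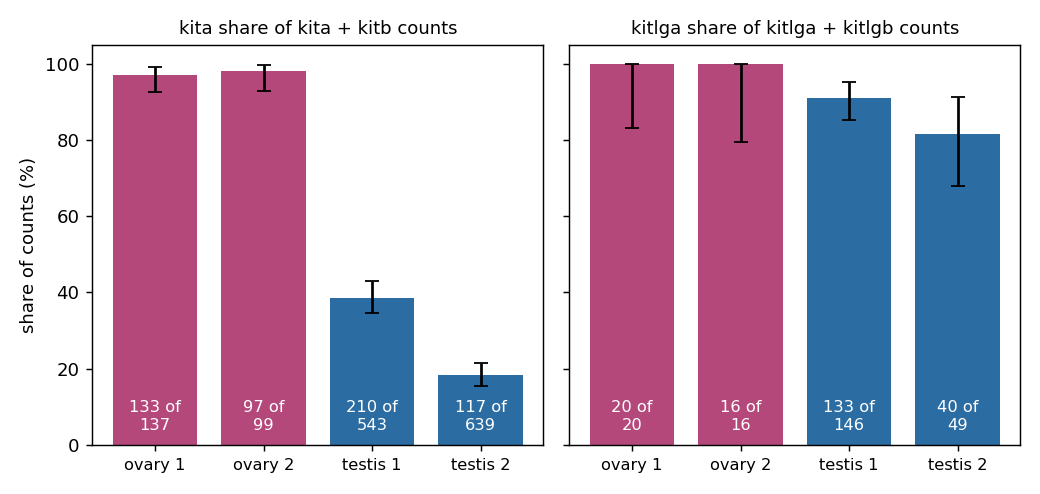
Share of kita in the counts of kita and kitb (left) and of kitlga in the counts of kitlga and kitlgb (right), in % for each library, with exact 95% binomial intervals as error bars and the counts in the bars. kita takes 97.1% and 97.98% of the receptor counts in the ovaries and 38.7% and 18.3% in the testes.

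The ligands had fewer reads than the receptors. For kitlga, the ovaries had 20 and 16 counts, or 1.06 and 1.08 CPM. The testes had 133 and 40 counts, or 8.73 and 2.55 CPM. The ovaries were almost equal and both testes lay above them, but testis replicate 1 was far higher than testis replicate 2. Means were 1.07 ± 0.0118 CPM for ovary against 5.64 ± 4.36 CPM for testis (SD, n = 2 each). The log2 fold change of kitlga was 2.39 ± 0.79 (SE), with a 95% interval of 0.48 to 4.31 and an edgeR adjusted p of 0.036. Its size and its call rested on few fish. It fell to 1.25 without testis replicate 1 (edgeR adjusted p 0.209) and was 2.41 without ovary replicate 1 (edgeR adjusted p 0.128) and 2.34 without ovary replicate 2 (edgeR adjusted p 0.121).

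No read of kitlgb was found in the ovaries, where 3 counts would have been 0.159 and 0.202 CPM. The testes had 13 and 9 counts, or 0.853 and 0.575 CPM. The transcript was therefore low in both testes, while the ovary libraries, which had more counts in total, had 0 counts of it. After TMM scaling, however, ovary replicate 2 had the smallest effective library size (14878200, against 15240400 and 15656300 for the testes). The mean in testis was 0.714 ± 0.197 CPM (SD, n = 2), at least 3.54-fold higher than in ovary when set against 3 counts in the ovary library with the higher limit. The fitted difference passed the threshold (edgeR adjusted p 0.00831), but its size depends on how 0 counts are treated and is not given as a fold. With 0 counts in both ovaries, kitlgb passed the filter on low counts only through the testes. When every gene with at least 1 count was tested, it no longer passed (edgeR adjusted p 0.0501). The bound was 2.85-fold without testis replicate 1 and 4.23-fold without testis replicate 2. The call was lost without ovary replicate 1 (edgeR adjusted p 0.0738) and without ovary replicate 2 (edgeR adjusted p 0.0637), which left 1 ovary library assumed to vary like the testes. Finding 0 counts does not show that kitlgb was absent from the ovaries, since a low level can give no read at this depth.

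In ligand counts, kitlga made up 20 of 20 and 16 of 16 in the ovaries, which allows a share as low as 83.2% and 79.4% (exact 95% binomial intervals). It made up 91.1% (85.3 to 95.2) of 146 and 81.6% (67.98 to 91.2) of 49 ligand counts in the testes. Both testis shares lay below those of the ovaries, but the intervals overlap. Overlap of intervals is not a test, so a difference in the balance of the ligands was neither shown nor excluded. The exact permutation p was again 0.333, the smallest possible. The intervals of the ligand shares thus overlapped between the sexes, whereas those of the receptor shares did not. The ovaries held only 20 and 16 ligand counts against 137 and 99 receptor counts, which widens the ligand intervals. This contrast therefore does not show that the balances of ligands and receptors behaved differently. Receptor counts outnumbered ligand counts 6.85 and 6.19 to 1 in the ovaries and 3.72 and 13.04 to 1 in the testes. The testis ratios lay on either side of the ovary ratios. These ratios of reads are not corrected for transcript length, so they compare libraries and not the amounts of receptor and ligand.

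The testes differed from each other most in kitlga. Its CPM was 3.42-fold higher in testis replicate 1 than in testis replicate 2 (95% counting interval 2.38 to 4.99). For kita the same ratio was 1.84 (1.46 to 2.33). By contrast, kitb was lower in testis replicate 1, at 0.655 of the other testis (0.569 to 0.753). For kitlgb the ratio of 1.48 (0.587 to 3.93) was within counting error. In the ovaries the ratios of kita, kitb and kitlga all had intervals that included equality. Summed marker lists differed between the testes too. Higher sums in testis replicate 1 were found for steroid cells of the Leydig and theca type (ratio 2.56), the other class III receptors (2.53), blood stem and mast cells (2.20), oocytes (1.77), ligands of the other class III receptors (1.69), smooth muscle and interstitial cells (1.58), granulosa cells (1.36), and leukocytes and erythrocytes (1.34). Genes of spermatocytes and spermatids had a ratio of 1.09, those of Sertoli cells 0.94, those of melanocytes 0.906 and those of spermatogonia 0.83. Among the pathway lists described below, the ratio was 1.40 for ligand-cleaving proteases and 1.03 for negative regulators. It was 0.921 for adaptors and proximal kinases and 0.879 for the Ras-MAPK and PI3K-Akt cascade. Most lists thus had the direction of kita and kitlga, some of them near equality, and no single list was set apart. Of the steroid cell sums of 1826 and 714 CPM in testis replicates 1 and 2, insl3 alone gave 1149 and 295 CPM. By contrast, cyp11c1 of that list was almost equal in the testes (81.4 and 83.5 CPM). With 2 testes, the part of cell composition in these differences was not tested.

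**Figure D3:**
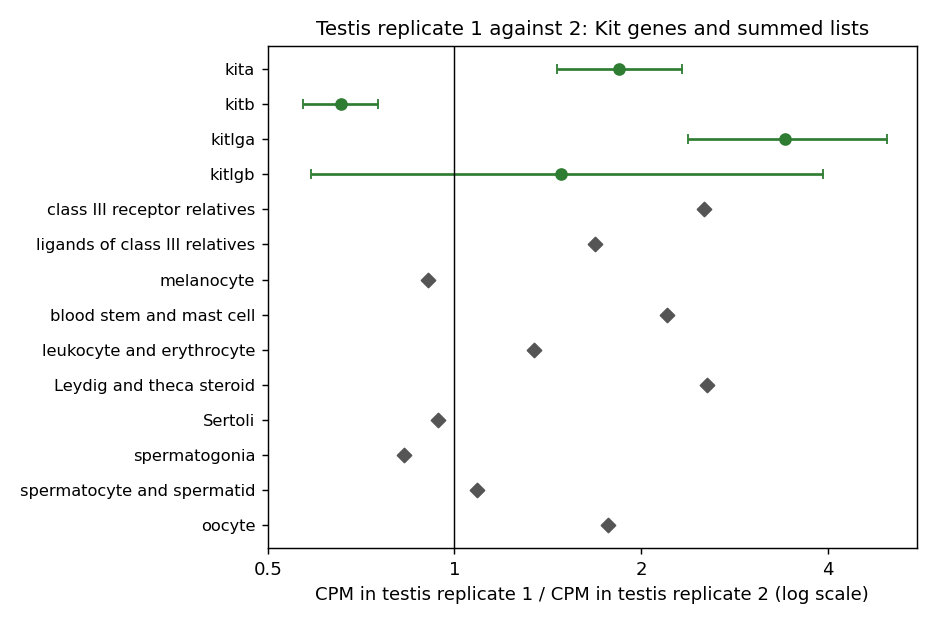
CPM in testis replicate 1 divided by CPM in testis replicate 2 (horizontal axis, log scale) for the 4 Kit genes (circles, with 95% counting intervals) and for summed lists of related receptors, ligands and cell type markers (diamonds, no interval). kitlga (3.42) lies to the right, as do several lists up to 2.56, and kitb (0.655) lies to the left of all lists.

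Kit was next set beside its relatives. Of the 5 other class III receptors, flt3 and csf1ra were higher in testis and 0 were higher in ovary. The share higher in testis, 40%, was near the 36.7% of all genes tested. flt3, a receptor of blood progenitors, had ovary levels of 0.688 and 0.672 CPM against testis levels of 2.82 and 4.09 CPM. Its log2 fold change was 2.33 with an SE of 0.64 (edgeR adjusted p 0.0195). csf1ra, which marks macrophages and yellow pigment cells, had ovary levels of 3.39 and 5.91 CPM against testis levels of 28.0 and 8.56 CPM (log2 fold change 1.98 ± 0.66, SE, edgeR adjusted p 0.0374). As for kitlga, its testis replicate 1 was far above testis replicate 2. The remaining receptors did not pass. Their log2 fold changes were 1.48 for csf1rb, 1.49 for pdgfrb and 0.09 for pdgfra, both PDGF receptors being known from mesenchymal and mural cells. The number of class III receptors that passed was unsteady. It was 0 without ovary replicate 1, 0 without ovary replicate 2, 1 without testis replicate 1, and 4 with library size scaling.

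For the ligands of these relatives, 1 of 6 tested genes was higher in testis and 2 were higher in ovary. These were 16.7% and 33.3%, against 36.7% and 28.5% of all genes tested. pdgfc had ovary levels of 21.1 and 48.5 CPM against testis levels of 4.66 and 3.32 CPM, a log2 fold change of -3.12 with an SE of 0.50 (edgeR adjusted p 0.00283). pdgfd was also higher in ovary (-2.02 ± 0.42, SE, edgeR adjusted p 0.0073). pdgfbb, a ligand of the PDGF receptors, was higher in testis (2.55 ± 0.84, SE, edgeR adjusted p 0.0367), with 8.73 and 2.24 CPM in the testes. The other tested ligands, csf1a, il34 and pdgfba, did not pass. The number that passed was 5 without testis replicate 2, and pdgfbb no longer counted among those higher in testis without ovary replicate 1 or testis replicate 1, when that number was 0.

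**Figure D4:**
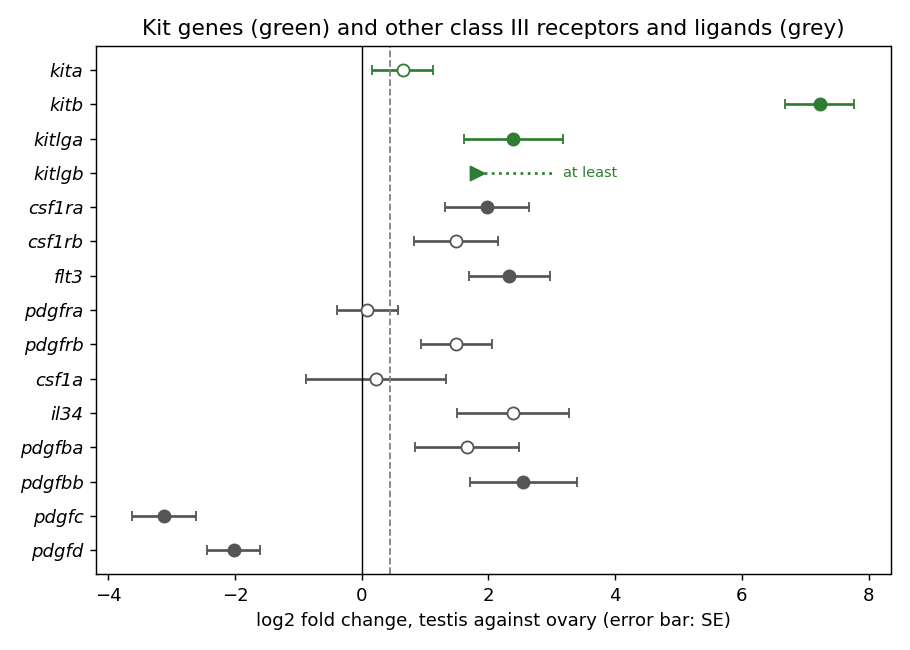
Log2 fold change of testis against ovary (horizontal axis, points with SE) for the Kit genes (green) and for other class III receptors and their ligands (grey). Filled points passed an edgeR adjusted p of 0.05, the arrowhead marks the lower bound of kitlgb, and the dashed line is the median of all genes tested (0.45). kitb (7.23) lies farthest to the right and pdgfc (-3.12) farthest to the left among the genes drawn.

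Genes that act after the receptor were then counted. Of 29 tested adaptors and proximal kinases, 5 were higher in testis and 13 higher in ovary, with a median log2 fold change of -0.49. These were 17.2% and 44.8%, against 36.7% and 28.5% of all genes tested. pik3cb and pik3ca, catalytic subunits of PI3K, were higher in testis by 2.22 and 1.48 on the log2 scale. pik3cd, another such subunit, and the adaptor crk were higher in ovary, with log2 fold changes of -3.58 and -2.53. The edgeR adjusted p of these 4 genes ran from 0.00034 to 0.00322. Without ovary replicate 1 the number higher in testis was 3. For pik3cd the ovaries had 92.0 and 65.5 CPM and the testes 8.07 and 5.11 CPM.

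Of 24 tested genes of the Ras-MAPK and PI3K-Akt cascade, 4 were higher in testis and 10 higher in ovary, with a median of -0.43. These were 16.7% and 41.7%, against 36.7% and 28.5% of all genes tested. Higher in testis were map2k2b, a MAPK kinase (log2 fold change 3.00), and a pdpk1 copy (ENSDARG00000062304, 2.73), which encodes a kinase that activates Akt. Higher in ovary were foxo3a (-3.99), a transcription factor that Akt keeps out of the nucleus, and an hras copy (ENSDARG00000005651, -3.51). The edgeR adjusted p of these 4 genes ran from 0.000177 to 0.00417. foxo3a had ovary levels of 137 and 112 CPM against testis levels of 7.22 and 8.43 CPM. The duplicates of map2k2b and of the pdpk1 copy went the other way. map2k2a had a log2 fold change of -1.19 (edgeR adjusted p 0.00627), with means of 165 CPM in ovary and 72.6 CPM in testis. The other pdpk1 copy (ENSDARG00000018285) had -1.06 (edgeR adjusted p 0.00709), with means of 173 CPM in ovary and 83.3 CPM in testis. The duplicates of foxo3a and of the hras copy did not pass. foxo3b had a log2 fold change of 0.78 (edgeR adjusted p 0.0836). The other hras copy (ENSDARG00000098497) had -0.30 (edgeR adjusted p 0.618). With library size alone the adaptors had 11 genes higher in testis and 9 higher in ovary, and the cascade 9 and 6. That scaling moved all genes towards testis, those higher in testis making up 56.3% of the genes past the threshold with TMM and 73.1% with library size alone. A minimum of 10 counts in every library also changed the numbers. The adaptors then had 9 genes higher in testis and 10 higher in ovary, and the cascade 8 and 10. Of all genes past the threshold with that filter, 50.1% were higher in testis.

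Of 22 tested negative regulators, 7 were higher in testis and 7 higher in ovary. Each was 31.8%, near the 36.7% and 28.5% of all genes tested. When every gene with at least 1 count was tested, 5 were higher in testis and 7 higher in ovary. The number higher in testis fell to 1 without ovary replicate 1, to 3 without testis replicate 1 and to 4 without testis replicate 2. socs1a, a suppressor of cytokine signalling, had ovary levels of 20.9 and 66.5 CPM against testis levels of 2.36 and 1.60 CPM. Its log2 fold change was -4.46 with an SE of 0.64 (edgeR adjusted p 0.00195). The adaptor dok1a was likewise higher in ovary (-4.62 ± 0.88, SE, edgeR adjusted p 0.00523). Its duplicate dok1b had the same direction (log2 fold change -1.98), with ovary levels of 45.9 and 36.2 CPM against testis levels of 10.9 and 9.96 CPM. The duplicate of socs1a went the other way. socs1b had 0 and 2 counts in the ovaries and 33 and 15 in the testes. This was at least 7.75-fold higher in testis when set against 3 counts in the ovary library with the higher limit (edgeR adjusted p 0.0116). With so few ovary counts, socs1b passed the filter on low counts only through the testes and could not be called higher in ovary. ptpn11b, which encodes the phosphatase Shp2 that is also known to promote Ras signalling, had ovary levels of 1.64 and 3.02 CPM against testis levels of 31.7 and 8.30 CPM (log2 fold change 3.10 ± 0.75, SE, edgeR adjusted p 0.012). Its duplicate ptpn11a went the other way, with 125.8 and 125.7 CPM in the ovaries against 33.3 and 32.4 CPM in the testes. The log2 fold change of ptpn11a was -1.94 (edgeR adjusted p 0.000653).

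Among 9 genes of proteases that can cut ligands from the membrane, an mmp14 copy (ENSDARG00000002235, log2 fold change 1.94) and an adam17 copy (ENSDARG00000093093, 1.05) were higher in testis (edgeR adjusted p 0.0157 and 0.0255). The number was 0 without testis replicate 1 and without ovary replicate 1, and 4 with library size scaling. Of all 95 tested genes in these lists, 21 were higher in testis (22.1%) and 32 higher in ovary (33.7%). All genes tested had 36.7% and 28.5%.

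**Figure D5:**
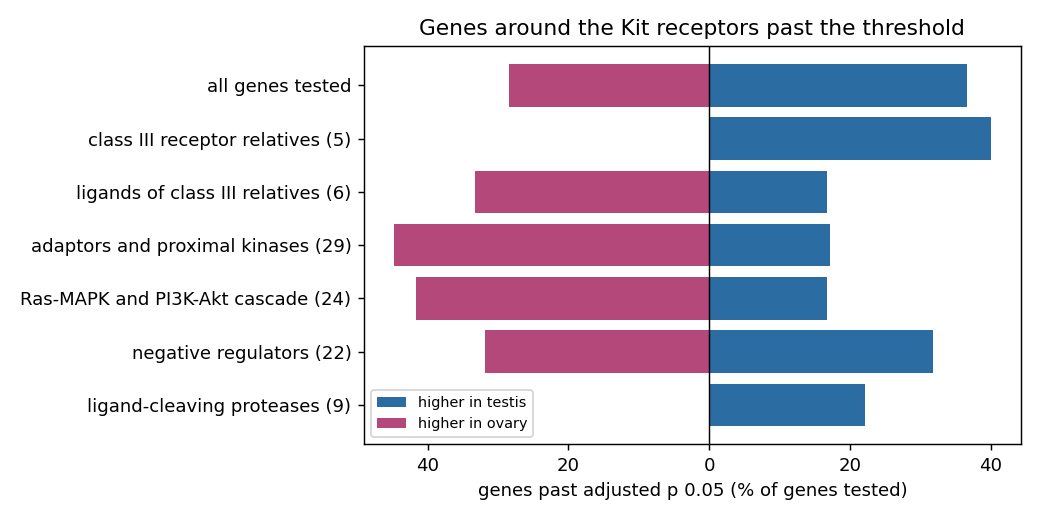
Percentage of tested genes past an edgeR adjusted p of 0.05 that were higher in testis (right) or in ovary (left), for all genes tested and for lists around the Kit receptors, with the number tested in brackets. Adaptors and cascade genes have more genes higher in ovary (13 and 10) than in testis (5 and 4). With library size scaling, which moved all genes towards testis, the numbers were 9 and 6 in ovary and 11 and 9 in testis. With at least 10 counts in every library they were 10 and 10 in ovary and 9 and 8 in testis.

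Markers of cells that may carry Kit were looked at beside these results. Genes of melanocytes had summed ovary levels of 24.9 and 20.6 CPM against testis levels of 27.8 and 30.7 CPM, and 3 of 10 tested genes were higher in testis, a smaller share than the 36.7% of all genes tested. The other 7 did not pass, among them mlpha, slc45a2 and dct with log2 fold changes of -1.63, -0.73 and -0.38. Those that passed included pmela, a component of pigment granules, with ovary levels of 1.06 and 0.47 CPM against testis levels of 4.86 and 6.07 CPM, and slc24a5, with 1 count in all in the ovaries and 15 in each testis. Genes of blood stem and mast cells had summed ovary levels of 16.3 and 8.87 CPM against testis levels of 85.1 and 38.6 CPM, and 6 of 10 were higher in testis. One of these, myb, a regulator of blood stem cells, had 0 and 3 counts in the ovaries and 351 and 262 in the testes. Another, tal1, had 2 and 1 counts in the ovaries and 31 and 23 in the testes. With so few ovary counts, myb, tal1 and slc24a5 passed the filter on low counts only through the testes. None of them could thus be called higher in ovary. The blood stem and mast cell list also had 1 gene higher in ovary, gata2b (log2 fold change -4.70, edgeR adjusted p 0.021). It had 209 and 15 counts in the ovaries and 3 and 4 in the testes, so it passed that filter only through the ovaries. No gene of the melanocyte and blood stem lists was at 0 counts in both testes. Leukocyte and erythrocyte genes had summed ovary levels of 10.9 and 18.1 CPM against testis levels of 58.7 and 43.7 CPM. Of 6 tested genes, 2 were higher in testis (33.3%, against 36.7% of all genes tested) and the other 4 did not pass. Also on this list, cd8a had 0 counts in all libraries. The part of these cells in the levels of the Kit genes was not tested.

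Markers of the cells of the gonad itself were looked at as well. Across all genes tested, 36.7% were higher in testis and 28.5% higher in ovary. Of 7 tested Sertoli cell genes, 6 were higher in testis (85.7%), and the list had summed ovary levels of 65.2 and 79.5 CPM against testis levels of 1223 and 1301 CPM. Of 9 tested steroid cell genes, 5 were higher in testis (55.6%) and 2 in ovary (22.2%). Granulosa cell genes were split, with cyp19a1a and a foxl2 copy (ENSDARG00000068417) higher in ovary and fshr and inha, which Sertoli cells also use, higher in testis. The spermatogonia list was split as well. nanos2, a gene of germline stem cells, had 0 and 1 counts in the ovaries and 57 and 70 in the testes, whereas pou5f3 and nanos3, which oocytes also store, were higher in ovary. For tekt1 and rsph9, genes of cilia and the sperm tail, both ovaries had 0 counts. Like nanos2, and like insl3 and cyp11c1 of the steroid cell list, they passed the filter on low counts only through the testes.

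Finally, the genes whose levels were most like those of each Kit gene were found by the distance of their log2 CPM over the 4 libraries. Nearest to kitb were septin3, dynlt1 and usp28, at distances of 0.385, 0.391 and 0.46 log2 units. Like kitb, each had 2 to 4 counts in an ovary and between 270 and 510 in a testis. Nearest to kitlga were arhgef25, pdgfbb and myzap (0.388, 0.409 and 0.509), all with 131 to 135 counts in testis replicate 1 and 35 to 43 in testis replicate 2. Nearest to kita were anapc15, ubxn8 and ndufb7 (0.359, 0.408 and 0.417). Nearest to kitlgb were ghrh, irx3 and or55e1 (0.1, 0.157 and 0.157), each with 0 counts in the ovaries and 9 to 14 in a testis. The measure compares levels over 4 libraries and says nothing of function.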

How the data were processed

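The deposited table holds raw read counts per Ensembl gene for 4 libraries. Per the labels and methods, the authors aligned reads with HISAT2 2.0.5 to GRCz11, removed duplicates with SAMtools 1.5 and counted reads over exons by strand with HTSeq 0.9.1. The labels describe depletion of ribosomal RNA, whereas the methods describe poly(A) selection, and which applies is unsure. Near-identical copies can lose reads in such counting. A symbol was found for 29201 of 32520 IDs. The ID of kita carries the symbol KIT, which RefSeq (GRCz12tu) lists as a synonym of kita alone. Where a pair of copies shared 1 symbol, both were kept by ID.

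Genes were filtered with filterByExpr (21815 left), scaled by TMM and tested with edgeR 4.0.16 in R 4.3.3 (quasi-likelihood, testis against ovary, Benjamini-Hochberg adjustment over all genes). Alternatives used DESeq2 1.42.0 and other scalings, filters and libraries. SE is the log2 fold change divided by the root of F. Total counts ranged from 11554811 to 26137839. For fold bounds, groups at or under 3 counts per library were set to 3 counts. Intervals of log2 fold changes come from the edgeR fit and include the spread between replicates. All other intervals cover counting error only. Replicates of a sex differed by far more than sampling noise (chi-square per degree of freedom 56.7 and 31.5). The pipeline was also run on simulated data, with the same replicate spread for every gene and few changed genes. These data differ in both, so that run does not vouch for the calls given here. The members, lists and naming rule (the 4 Kit genes, up to 2 genes of each list in each direction, all class III receptors, and 3 like-patterned genes for each Kit gene) were chosen with earlier results of these data known. The genes mlpha, slc45a2, dct, cd8a, ptpn11a, map2k2a, foxo3b and dok1b were named outside this rule, after their values had been seen. So were a pdpk1 copy (ENSDARG00000018285) and an hras copy (ENSDARG00000098497). Lengths of transcripts were not used here, so levels of different genes were not ranked. Drawings were made with matplotlib 3.10.9.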

Additional observations from a re-analysis of the deposited data

How the results depend on the processing

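Under all 12 alternatives that gave it a value, kitb kept its direction and passed the threshold, with log2 fold changes of 6.87 to 7.97. It was removed, with kitlgb, by a minimum of 10 counts in every library, which left 1 Kit gene past the threshold. kita passed only with library size scaling (1.40). kitlga no longer passed when every gene with at least 1 count was tested (2.34), at an adjusted p under 0.01 (2.39) and with the replicate number as a block (2.17), and kitlgb not when every gene with at least 1 count was tested (fitted log2 value 6.51), which left 1 Kit gene there.

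Without each library in turn, the number of Kit genes past the threshold ran from 1 to 2, with log2 values of 1.25 to 3.01 for kitlga and 6.47 to 6.56 (fitted) for kitlgb, which was filtered out without either testis and after thinning. A lone library was then assumed to vary like the other group. Class III receptors past the threshold numbered 4 with library size scaling and with at least 10 counts in every library, 1 with every gene of at least 1 count and with the replicate block, 0 at an adjusted p under 0.01, and 0 to 2 without each library. For the proteases these numbers were 4 with library size scaling, 1 with the replicate block, 0 at an adjusted p under 0.01 and 0 to 3 without each library. Without each library, 2 to 5 ligands of the relatives and 8 to 13 negative regulators passed, and 6 of the latter at an adjusted p under 0.01. The causes were not tested.

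The labels do not pair fish by replicate number, and deviations of same-numbered libraries had a correlation of -0.03. After the data had been seen, thinning to the smallest library and edgeR's legacy fit were added. They gave kitb 7.91 and 7.23, kitlga 2.84 and 2.39, and kita 0.65 and 0.65.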
